A study of Homo sapiens with 12 samples.

Results

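The 43 genes described here encode the kinases, cyclins, kinesins, centromere proteins and cytokinesis factors that carry a cell from G2 through mitosis. They were taken as a fixed list of gene symbols, which was chosen with earlier results of these data known. The shares of all genes set beside counts of members below are therefore a description and no test of the list. A gene's level was the sum of its estimated transcript counts in each library. All 43 were found among the 36315 genes with a count row, and all 43 were among the 21601 genes that reached 10 counts over the 12 libraries and were tested. The cells were HMC3, an established immortalized human microglial line, and their 12 libraries form 4 groups of 3. Every group was transfected with an siRNA for 48 h and then given a pre-clustered Fc protein at 2 µg/ml for 24 h. The Ctrl group received negative control siRNA and Ctrl-Fc, and the EphB2 group received negative control siRNA and EphB2-Fc, the ectodomain of the EphB2 receptor joined to an antibody Fc part. The ephrin-B1 siRNA group received siRNA against ephrin-B1, a membrane ligand of EphB2, and Ctrl-Fc. The EphB2 + ephrin-B1 siRNA group received ephrin-B1 siRNA and EphB2-Fc. All groups are thus transfected and Fc-treated cultures of 1 immortalized line, and no untransfected culture was analysed here.

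Transcripts of the mitotic genes accumulate late in the cell cycle and are largely degraded or silenced after division, so that in a bulk culture their level follows how many cells are in G2 and mitosis. Cyclin B with CDK1 starts mitosis, PLK1 and the Aurora kinases build the spindle, the kinetochore and the spindle checkpoint tie chromosomes to it, and CDC20 with the anaphase-promoting complex ends it. Ephrin-B proteins signal backwards into the cell that carries them when they are bound by a clustered Eph receptor, and the comparisons below ask how clustered EphB2-Fc and the knockdown of ephrin-B1 bear on this gene program. In a bulk library, fewer cells in G2 and mitosis and less mitotic RNA per cell cannot be told apart.

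Many mitotic promoters carry 2 short elements that are known as the binding places of cell cycle regulators. The CHR (cell cycle genes homology region), TTTGAA or TTCGAA, is bound by the MuvB core of the DREAM and B-MYB complexes, and CCAAT is bound by NF-Y. RefSeq promoter windows (GRCh38.p14), from 250 bases before to 50 bases after the gene start, were matched by symbol for 36 of the 43 genes. Both motifs were searched on both strands, so that TTCAAA and ATTGG also count as matches. A CHR match was present in 29 of the 36 genes (80.6%), against 19.5% of all 27305 genes with a window. A CCAAT match was present in 30 of the 36 (83.3%), against 39.7% of all genes. Both stood in 1 window for 25 of the 36 (69.4%), against 7.85% of all genes. Among 92 other mitotic genes with a window 57.6% held a CHR match, and among 25 genes of G1/S and DNA replication 4.0% did. The 100 bases before the start are printed for 7 genes that passed the test in a comparison below and, last, for MKI67, which passed in none. Each is written 5′ to 3′ on the strand of its gene, with CHR and CCAAT matches in capitals.
CCNB2, chr15:59105046-59105145, plus strand: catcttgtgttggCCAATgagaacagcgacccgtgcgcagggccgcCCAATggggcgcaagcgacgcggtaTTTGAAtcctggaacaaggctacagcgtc
PLK1, chr16:23678789-23678888, plus strand: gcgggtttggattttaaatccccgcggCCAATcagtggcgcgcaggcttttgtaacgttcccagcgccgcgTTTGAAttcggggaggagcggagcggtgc
KIF4A, chrX:70290004-70290103, plus strand: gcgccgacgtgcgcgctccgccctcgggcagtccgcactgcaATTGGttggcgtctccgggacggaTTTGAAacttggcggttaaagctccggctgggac
ESPL1, chr12:53268199-53268298, plus strand: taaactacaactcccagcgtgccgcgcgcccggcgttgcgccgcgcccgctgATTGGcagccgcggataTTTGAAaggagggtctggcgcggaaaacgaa
CDCA8, chr1:37692416-37692515, plus strand: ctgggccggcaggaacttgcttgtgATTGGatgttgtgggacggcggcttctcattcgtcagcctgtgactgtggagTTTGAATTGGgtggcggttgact
KIF20A, chr5:138179012-138179111, plus strand: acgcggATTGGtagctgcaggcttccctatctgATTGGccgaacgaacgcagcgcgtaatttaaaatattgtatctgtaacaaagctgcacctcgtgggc
KIF2C, chr1:44739737-44739836, plus strand: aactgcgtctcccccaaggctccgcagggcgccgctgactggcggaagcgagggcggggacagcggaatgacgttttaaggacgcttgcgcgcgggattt
MKI67, chr10:128126424-128126523, minus strand: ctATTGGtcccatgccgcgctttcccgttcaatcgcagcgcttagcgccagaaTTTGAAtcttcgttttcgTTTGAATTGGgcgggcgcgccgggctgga
The first 4 pair a CCAAT match with a CHR match nearer the start, and in CCNB2 and PLK1 the CHR match begins at position -29 from the start. In CDCA8 and MKI67 the last A of a TTTGAA is also the first A of an ATTGG. KIF20A had CCAAT matches without a CHR match, and KIF2C had neither. The genes with a CHR match and those without overlapped in how they responded. The log2 fold change of EphB2 against Ctrl had a median of -0.19 over the 29 genes with a match (-0.34 to 0.02) and of -0.11 over the 7 without (-0.45 to 0.21).

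The 12 libraries held 13230689 to 25785591 estimated counts (median 18694233), and the 43 genes took 0.957% of them. No member had fewer than 567 counts in any library. EFNB1, the gene of ephrin-B1, matched the labels. It was at 20.4, 17.5 and 19.3 CPM (counts scaled to equal library totals, with TMM factors) in Ctrl, at 15.6, 18.8 and 18.4 in EphB2, at 7.10, 6.60 and 8.70 in ephrin-B1 siRNA and at 6.56, 6.03 and 6.38 in EphB2 + ephrin-B1 siRNA. It fell by 1.35 ± 0.13 (log2, SE) in ephrin-B1 siRNA against Ctrl (adjusted p = 0.00124). Microglial markers were nearly absent from these cells: 7 of 10 could be tested, they summed to 3.11 to 5.43 CPM, and AIF1, CX3CR1 and C1QA had 0, 3 and 1 counts over all libraries. CSF1R, the receptor on which microglia depend, was at 1.44 to 2.74 CPM. The 8 fibroblast and pericyte markers summed to 11561 to 23278 CPM and differed by replicate number in every group. Replicate 1 was lowest and replicate 2 highest in each. Within this list FN1 was at 6534 to 17725 CPM, while COL3A1 was nearly absent, with 14 counts over all libraries. The 3 replicate numbers were taken as 3 experiments of origin, since the submitted names share an experiment number. Across genes, deviations from the group means correlated between same-numbered libraries at 0.71 to 0.76 for replicate 1 and 0.72 to 0.75 for replicate 2. For replicate 3 they correlated at only 0.09 to 0.20. Replicate 3 lay between replicates 1 and 2 for 59.4 to 64.5% of the 13078 genes with over 1 CPM in every library. Whether it is a separate experiment was not tested. The study describes the 3 libraries of a group as biological replicates, and p-values measure the spread between them in 1 cell line. Among the 43 genes, replicate 1 was below replicate 2 in 30 to 34 genes per group. Among the 13078 genes with over 1 CPM in every library it was below in 6527 to 7213 per group. For that reason each result is given from the fit without the replicate number and, where the call differs, also from the fit with the replicate number as a block.

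Summed over the 43 genes, the level was lower with EphB2-Fc and higher with ephrin-B1 siRNA, in each case with or without the other. The sum was 9437, 9995 and 9707 CPM in Ctrl (mean 9713 ± 279, SD, n = 3). The sum was lower, at 8354, 8847 and 8842 CPM in EphB2 (8681 ± 283). All EphB2 libraries were below all Ctrl libraries, and the mean was 10.6% lower. In ephrin-B1 siRNA the sum was 10589.5, 10675 and 10553 CPM (10606 ± 62.8), above every other library, and its mean was 9.20% above that of Ctrl. In EphB2 + ephrin-B1 siRNA it was 9038, 9439 and 9222 CPM (9233 ± 201). That was 12.9% below ephrin-B1 siRNA alone and 6.36% above EphB2 alone, and it overlapped the range of Ctrl. These sums describe a chosen list and were given no test.

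**Figure D1:**
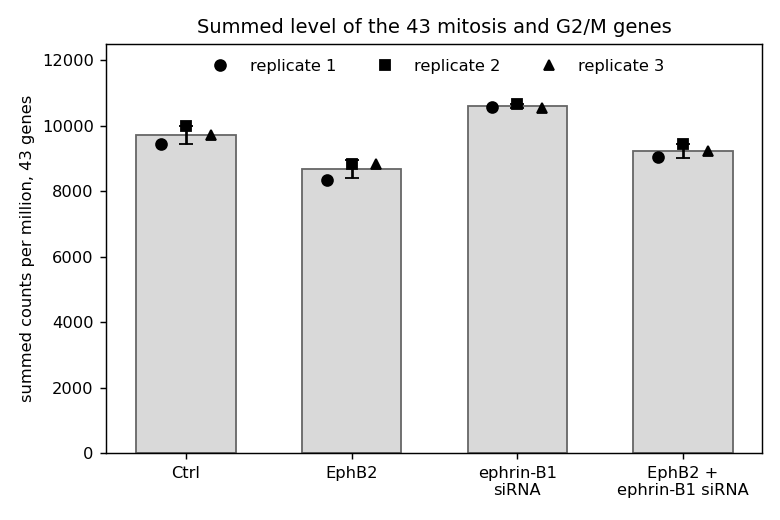
Summed CPM of the 43 mitosis and G2/M genes (y axis) in the 4 groups (x axis), with bars at the mean, error bars of 1 SD and a symbol for each of the 3 replicates. The EphB2 libraries (8354 to 8847) sit below the Ctrl libraries (9437 to 9995), and the ephrin-B1 siRNA libraries (10553 to 10675) sit above them.

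EphB2-Fc on cells with control siRNA gave lower levels across nearly the whole list, but the single changes were small. The log2 fold change of EphB2 against Ctrl was negative for 40 of the 43 genes, with a median of -0.19 (12.2% lower), while the median over all genes tested was 0.01. One member, KIF20A, passed an adjusted p of 0.05 in edgeR's quasi-likelihood test (1 of 43, against 0.0139% of all genes called lower), and 18 members had an unadjusted p under 0.05, as did 7.56% of all genes. When the replicate number entered as a block, 21 members fell and none rose, against 3.2% of all genes called lower. With the block and without replicate 3, 4 members fell (PLK1, HMMR, DLGAP5 and KIF20A), against 0.477% of all genes. For 21 members every EphB2 library was below every Ctrl library, against 5.93% of all genes. For 35 members EphB2 was the lower library in each of the 3 same-numbered pairs, against 19.4% of all genes. The members are more abundant than most genes. Among the 4986 genes at least as high on average as the lowest member, NDC80, the blocked fit called 8.3% lower, and the groups did not overlap downwards for 9.73%.

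The same EphB2-Fc treatment was also given to cells with ephrin-B1 siRNA. Its fold changes came from libraries other than those of the first comparison, but the tests of both shared 1 estimate of the spread over all 12 libraries. The log2 fold change of EphB2 + ephrin-B1 siRNA against ephrin-B1 siRNA was negative for 42 of 43 genes, with a median of -0.20 and a median of 0.00064 over all genes. KIF20A was again the 1 member that passed, against 0.0324% of all genes called lower, and 27 members had an unadjusted p under 0.05, as did 8.46% of all genes. In the blocked fit 28 members fell, against 4.11% of all genes and 10.9% of the 4986 abundant ones. Without replicate 3 in that fit 3 members fell, against 0.338% of all genes. For 26 members the groups did not overlap, against 7.31% of all genes and 12.7% of the abundant ones. In each of the 3 same-numbered pairs 38 members were lower, against 22% of all genes.

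Averaged over both siRNA backgrounds, the EphB2-Fc effect used all 12 libraries. It was negative for 42 of 43 genes with a median of -0.18. In this contrast 7 members fell, against 0.602% of all genes, and none rose. They were CCNB2, PLK1, TOP2A, KIF11, KIF4A, TPX2 and KIF20A. With the replicate number as a block 35 members fell, against 8.37% of all genes and 20.1% of the abundant ones, and with the block but without replicate 3 there were 22, against 3.0% of all genes. The 8 members outside the blocked call were CCNA2, FOXM1, MKI67, AURKB, BIRC5, NDC80, ECT2 and ESPL1. Of the 7 calls, that of KIF20A held without any single library. That of PLK1 was lost without EphB2 + ephrin-B1 siRNA replicate 3 (adjusted p = 0.0567), and that of CCNB2 without replicate 3 of any group (adjusted p up to 0.0606). That of KIF4A was lost without replicate 3 of any group or ephrin-B1 siRNA replicate 1 (up to 0.0893). That of TOP2A held only without EphB2 + ephrin-B1 siRNA replicate 1 (0.0481), and those of KIF11 and TPX2 were lost without any 1 library (up to 0.152 and 0.138). Leaving out a whole replicate number ended the calls of all but KIF20A, with adjusted p from 0.0837 to 0.252 without replicate 1 or 2. KIF20A held without replicate 1 or 2 (0.0225 and 0.0243). Without replicate 3 none of the 7 passed (0.764 to 0.967), while the fold changes kept their sign in all these fits.

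**Figure D2:**
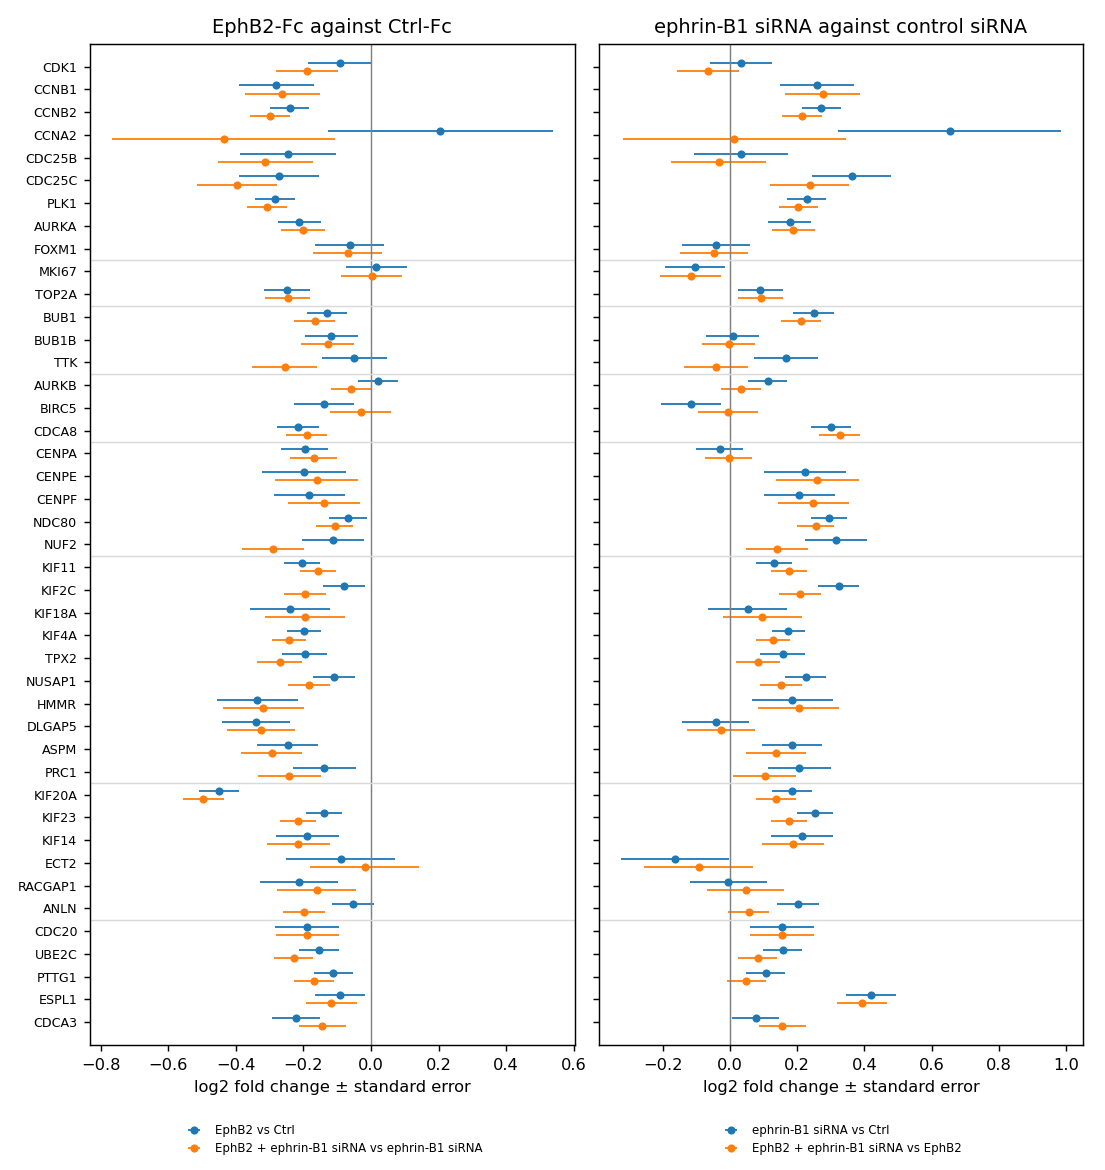
Log2 fold change with its standard error (x axis) for each of the 43 genes (y axis, grouped by role, grey lines between roles). The left panel shows EphB2-Fc against Ctrl-Fc and the right panel ephrin-B1 siRNA against control siRNA, each in both backgrounds. On the left 40 and 42 of 43 values lie below 0, and on the right 36 and 33 lie above 0.

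Among the 9 genes of mitotic entry, EphB2-Fc lowered the B-type cyclins, PLK1 and the CDC25 phosphatases in the blocked fit. CCNB2, a cyclin partner of CDK1 (chr15:59105126-59125045), was at 134, 140 and 138 CPM in Ctrl and at 110, 123 and 116 in EphB2. The groups did not overlap, and the log2 fold change was -0.24 ± 0.059 (SE). Over both backgrounds CCNB2 fell by 0.27 ± 0.041 (adjusted p = 0.0145). PLK1, the polo-like kinase of spindle assembly and mitotic exit (chr16:23677656-23690367), was at 158, 158 and 156 CPM in Ctrl and at 121, 131 and 136 in EphB2. It fell by 0.30 ± 0.042 over both backgrounds (adjusted p = 0.00864), 18.5% in level. CCNB1, the main mitotic cyclin (chr5:69167135-69178245), was at 231, 275 and 252 CPM in Ctrl and at 183, 231 and 210 in EphB2. The highest EphB2 library was just above the lowest Ctrl library, and its log2 fold change of -0.28 ± 0.11 had an adjusted p of 0.607. Its adjusted p was 0.00093 with the block, and EphB2 was the lower library in each same-numbered pair. AURKA, the Aurora kinase of centrosomes and spindle poles (chr20:56369389-56392337), was at 254, 266 and 268 CPM in Ctrl and at 214, 244 and 223 in EphB2 (log2 fold change -0.21 ± 0.064, adjusted p = 0.424, 0.00832 with the block). CDC25C, the phosphatase that switches on CDK1, had a log2 fold change of -0.27 in cells with control siRNA and of -0.40 in cells with ephrin-B1 siRNA (adjusted p = 0.0134 and 0.000815 with the block).

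CDK1 and FOXM1 did not pass against Ctrl in either fit. CDK1, the kinase of mitotic entry (chr10:60778331-60794852), was at 210, 234 and 228 CPM in Ctrl and at 197, 239 and 195 in EphB2. The groups overlapped, and its log2 fold change was -0.09 ± 0.093. With ephrin-B1 siRNA it was -0.19 ± 0.093 (adjusted p = 0.624, 0.0448 with the block), and over both backgrounds -0.14 ± 0.065 (adjusted p = 0.39, 0.0182 with the block). FOXM1, a transcription factor of G2/M genes (chr12:2857680-2877174), was at 387, 325 and 338 CPM in Ctrl and at 354, 310 and 341 in EphB2. Its log2 fold change over both backgrounds was -0.07 ± 0.072, and it passed neither fit in any of the comparisons.

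All 10 spindle motors and microtubule proteins had negative values in both backgrounds, with medians of -0.20 and -0.24. In the blocked fit 7 of them fell with control siRNA, against 3.2% of all genes and 8.3% of the abundant ones. With ephrin-B1 siRNA all 10 fell, against 4.11% and 10.9%. KIF11, the motor that pushes spindle poles apart (chr10:92574105-92655395), was at 247, 250 and 250 CPM in Ctrl and at 221, 216 and 211 in EphB2. It fell by 0.18 ± 0.037 over both backgrounds (adjusted p = 0.0491). KIF4A, a motor bound to chromosomes and the central spindle (chrX:70290104-70420886), was at 143, 144 and 140 CPM in Ctrl and at 123, 124 and 125 in EphB2. It fell by 0.22 ± 0.035 over both backgrounds (adjusted p = 0.0171). TPX2, a spindle assembly factor that activates AURKA (chr20:31739271-31801805), was at 763, 833 and 787 CPM in Ctrl and at 672, 702 and 706 in EphB2. It fell by 0.23 ± 0.047 over both backgrounds (adjusted p = 0.0428). In each of these 3 genes every EphB2 library was below every Ctrl library. DLGAP5 and HMMR, microtubule binding proteins of the spindle, had larger but more variable differences. DLGAP5 (chr14:55148112-55191608) was at 123, 146 and 141 CPM in Ctrl and at 95.5, 118 and 110 in EphB2, with a log2 fold change of -0.34 ± 0.10 (adjusted p = 0.402, 0.000674 with the block). HMMR (chr5:163460203-163491941) was at 88.6, 109.4 and 95.8 CPM in Ctrl and at 69.0, 83.0 and 80.7 in EphB2, with a log2 fold change of -0.34 ± 0.12 (adjusted p = 0.532, 0.00122 with the block). KIF2C, a kinesin that takes microtubules apart, gave -0.08 ± 0.062 in cells with control siRNA and -0.20 ± 0.062 in cells with ephrin-B1 siRNA. The second passed with the block (adjusted p = 0.00666).

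The cytokinesis genes held the strongest single change of the list. KIF20A, the kinesin that brings mitotic kinases to the central spindle (chr5:138178719-138187723), was at 240, 244 and 235 CPM in Ctrl and at 170, 173 and 183 in EphB2. It was at 279, 268 and 270 CPM in ephrin-B1 siRNA and at 200, 181 and 198 in EphB2 + ephrin-B1 siRNA. EphB2-Fc libraries were below their controls in both backgrounds with no overlap. KIF20A fell by 0.45 ± 0.060 against Ctrl (26.8%, adjusted p = 0.0374), by 0.50 ± 0.060 with ephrin-B1 siRNA (29.1%, adjusted p = 0.00955) and by 0.47 ± 0.043 over both (adjusted p = 0.00111). When the 12 libraries were left out one by one, the call against Ctrl held only without EphB2 + ephrin-B1 siRNA replicate 2, with adjusted p from 0.0373 to 0.259. The call in ephrin-B1 siRNA cells was lost without ephrin-B1 siRNA replicate 1 or 3 or EphB2 + ephrin-B1 siRNA replicate 3 (adjusted p up to 0.083), and the call over both held without any single library (adjusted p up to 0.0084). Both calls within a background were lost when any 1 replicate number was left out of all groups (adjusted p 0.18 to 1.0), and the call over both was lost without replicate 3 (0.764). Its log2 fold change against Ctrl stayed between -0.43 and -0.48 in the fits without 1 library. KIF23, another central spindle kinesin (chr15:69414246-69448427), was at 202, 202 and 204 CPM in Ctrl and at 180, 181 and 191 in EphB2 (log2 fold change -0.14 ± 0.053, adjusted p = 0.577). ECT2 and ANLN, which act at the contractile ring, gave -0.09 ± 0.16 and -0.05 ± 0.062 and passed neither fit against Ctrl.

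TOP2A, the topoisomerase that untangles chromosomes (chr17:40388525-40417896) and the member with the most counts, was at 1058, 1041 and 1043 CPM in Ctrl and at 900, 889 and 854 in EphB2. It fell by 0.25 ± 0.047 over both backgrounds (adjusted p = 0.0354). MKI67, the proliferation marker that coats mitotic chromosomes (chr10:128096659-128126423), did not share that pattern. It was at 789, 865 and 843 CPM in Ctrl and at 781, 825 and 919 in EphB2, with overlapping groups and a log2 fold change of 0.02 ± 0.09. Over both backgrounds its value was 0.01 ± 0.064 (adjusted p = 0.98).

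Of the 16 checkpoint, passenger complex, kinetochore and anaphase genes, 4 fell against Ctrl in the blocked fit. They were CDCA8, CENPA, UBE2C and CDCA3. That fit called 3.2% of all genes and 8.3% of the abundant ones lower. CDCA8, the borealin subunit of the chromosomal passenger complex (chr1:37692481-37709719), was at 90.4, 88.5 and 85.7 CPM in Ctrl and at 81.0, 72.4 and 74.4 in EphB2 (log2 fold change -0.22 ± 0.061, adjusted p = 0.379, 0.0272 with the block). The other passenger complex genes, AURKB and BIRC5, gave 0.02 ± 0.059 and -0.14 ± 0.09. NDC80, the kinetochore protein that grips microtubules (chr18:2571557-2616635), was at 47.7, 45.4 and 44.3 CPM in Ctrl and at 43.3, 44.2 and 43.5 in EphB2. Those groups did not overlap, but the difference of -0.07 ± 0.055 passed neither fit. CDC20, the activator of the anaphase-promoting complex (chr1:43358981-43363203), was at 118, 134 and 120 CPM in Ctrl and at 92.9, 118 and 116 in EphB2 (log2 fold change -0.19 ± 0.095, adjusted p = 0.705, 0.0622 with the block). CDCA3, a protein of mitotic entry and exit (chr12:6844793-6851292), was at 62.8, 70.6 and 70.3 CPM in Ctrl and at 59.7, 55.9 and 59.2 in EphB2 (log2 fold change -0.22 ± 0.07, adjusted p = 0.431, 0.0301 with the block). ESPL1, separase, was at 117, 107 and 97.0 CPM in Ctrl and at 95.4, 108.5 and 97.2 in EphB2, and these overlapped.

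**Figure D3:**
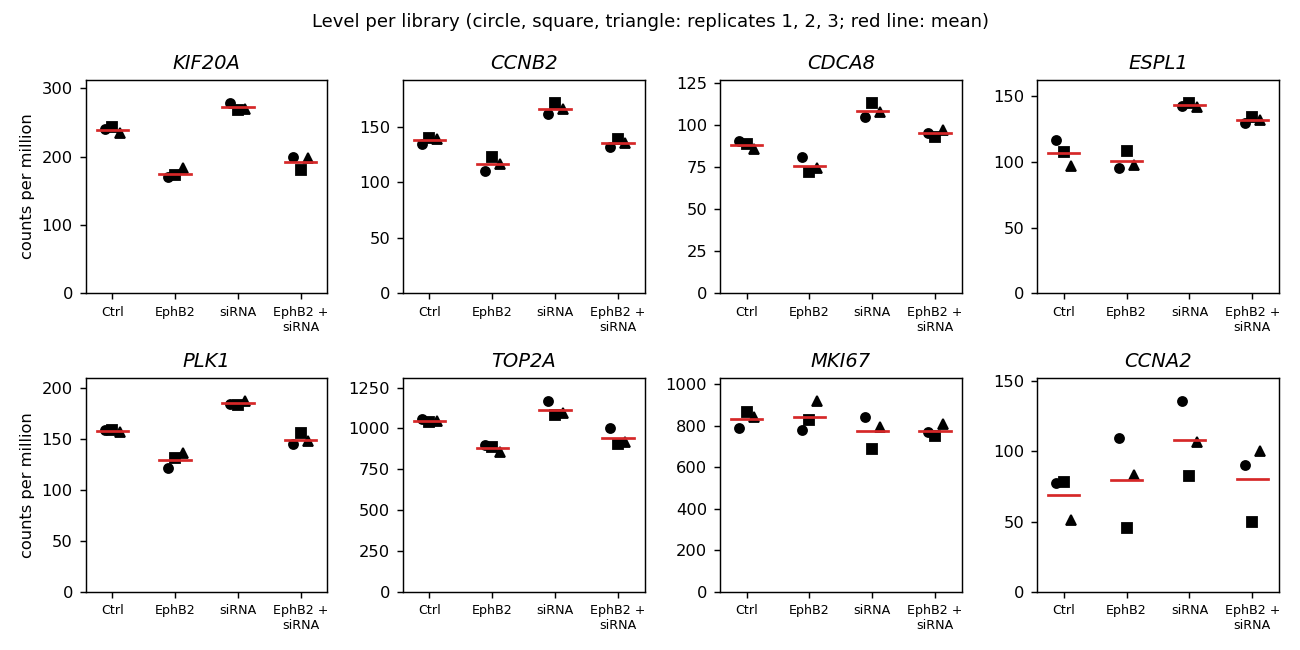
CPM (y axis, from 0) in each library of the 4 groups (x axis) for 8 genes, with circles, squares and triangles for replicates 1, 2 and 3 and a red line at the mean. KIF20A is lower in both EphB2-Fc groups, ESPL1 and CDCA8 are higher in both ephrin-B1 siRNA groups, MKI67 overlaps across groups, and CCNA2 spreads widely within each group (45.3 to 110 in EphB2).

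Ephrin-B1 siRNA gave higher levels across most of the list. An effect of lower ephrin-B1 and another effect of the siRNA cannot be told apart in these groups. Against Ctrl, the log2 fold change of ephrin-B1 siRNA was positive for 36 of 43 genes, with a median of 0.18 and a median of -0.0032 over all genes. In edgeR 6 members rose, against 0.657% of all genes called higher, and none fell. They were CCNB2, CDCA8, NDC80, KIF2C, KIF23 and ESPL1. With the replicate number as a block 26 members rose, against 6.51% of all genes and 16.6% of the abundant ones, and ECT2 fell. With the block and without replicate 3 there were 7, against 1.38% of all genes. For 27 members every ephrin-B1 siRNA library was above every Ctrl library, against 9.16% of all genes and 16.0% of the abundant ones. This comparison shares its Ctrl libraries with that of EphB2 against Ctrl, so their values are given side by side only.

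ESPL1, the protease that cuts cohesin at anaphase (chr12:53268299-53293638), had the highest fold among members that passed. It was at 117, 107 and 97.0 CPM in Ctrl, at 142, 145 and 141 in ephrin-B1 siRNA and at 130, 134 and 132 in EphB2 + ephrin-B1 siRNA. It rose by 0.42 ± 0.074 (33.7%, adjusted p = 0.0184), a call that was lost without Ctrl replicate 2 or 3 or any ephrin-B1 siRNA replicate (adjusted p up to 0.102). KIF2C (chr1:44739818-44767767) was at 166, 178 and 177 CPM in Ctrl and at 211, 222 and 218 in ephrin-B1 siRNA. It rose by 0.32 ± 0.062 (adjusted p = 0.0259). CDCA8 was at 105, 113 and 108 CPM in ephrin-B1 siRNA, above its Ctrl values of 85.7 to 90.4, and rose by 0.30 ± 0.061 (adjusted p = 0.0311). NDC80 was at 56.7, 56.2 and 55.5 CPM in ephrin-B1 siRNA and rose by 0.29 ± 0.055 (adjusted p = 0.0226). In NDC80 the SD between the 3 ephrin-B1 siRNA libraries was 0.614 CPM. CCNB2 was at 161, 172 and 166 CPM in ephrin-B1 siRNA and rose by 0.27 ± 0.058 (adjusted p = 0.0404). KIF23 was at 248, 239 and 237 CPM and rose by 0.25 ± 0.053 (adjusted p = 0.0364). The KIF2C, CDCA8, NDC80, CCNB2 and KIF23 calls were lost without any 1 of the ephrin-B1 siRNA libraries, Ctrl replicates 2 and 3 or EphB2 + ephrin-B1 siRNA replicate 3. All but that of NDC80 were also lost without Ctrl replicate 1, those of CDCA8, CCNB2 and KIF23 without EphB2 replicate 3, and those of CCNB2 and KIF23 without EphB2 + ephrin-B1 siRNA replicate 1. Adjusted p reached 0.175 in those fits, and the fold changes stayed positive. Without replicate 1 in all groups ESPL1 alone of the 6 held (adjusted p = 0.0308), and without replicate 2 (0.157 to 0.251) or replicate 3 (1.0) none did.

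Other members with higher levels in ephrin-B1 siRNA passed in the blocked fit alone. PLK1 was at 184, 183 and 187 CPM against 156 to 158 in Ctrl (0.23 ± 0.059, adjusted p = 0.0877, 0.00346 with the block). CCNB1 was at 273, 333 and 300 CPM (0.26 ± 0.11, adjusted p = 0.373, 0.000519 with the block). BUB1, a checkpoint kinase, was at 218, 227 and 207 CPM against 177 to 186 in Ctrl (0.25 ± 0.06, adjusted p = 0.0678, 0.00176 with the block). Of the 5 centromere and kinetochore genes, 4 rose in that fit, all but CENPA, the centromeric histone, at -0.03 ± 0.07. The fit called 6.51% of all genes and 16.6% of the abundant ones higher. Some members that were lower under EphB2-Fc showed little difference under the siRNA. DLGAP5 gave -0.04 ± 0.10, CDC25B 0.03 ± 0.14 and RACGAP1 -0.0047 ± 0.12. TOP2A gave 0.09 ± 0.067 although its groups did not overlap. ECT2, the exchange factor that starts furrowing, was at 180, 245 and 215 CPM in Ctrl and at 167, 223 and 181 in ephrin-B1 siRNA. It was lower within each same-numbered pair while the groups overlapped (-0.16 ± 0.16, adjusted p = 0.809, 0.0132 with the block).

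In cells that also received EphB2-Fc, fewer members passed for the siRNA. The log2 fold change of EphB2 + ephrin-B1 siRNA against EphB2 was positive for 33 of 43 genes, with a median of 0.14 and a median of -0.02 over all genes. Here 2 members rose, against 0.208% of all genes. CDCA8 rose by 0.33 ± 0.061 (adjusted p = 0.0442), from 81.0, 72.4 and 74.4 to 95.2, 93.0 and 97.4 CPM. ESPL1 rose by 0.39 ± 0.075 (adjusted p = 0.0452). The CDCA8 call held only without EphB2 replicate 1 or ephrin-B1 siRNA replicate 1, and the ESPL1 call only without Ctrl replicate 1, while leaving out any other library ended them (adjusted p up to 0.195). Neither held without any 1 replicate number (0.0723 to 1.0). In the blocked fit 17 members rose, against 4.53% of all genes and 11.1% of the abundant ones, and 3 without replicate 3, against 0.921%. The groups did not overlap for 15 members, against 6.89% of all genes and 11.4% of the abundant ones.

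Whether the EphB2-Fc effect depended on ephrin-B1 siRNA was tested by the interaction. No member and none of the 21601 genes passed in edgeR (0.0% called), no member had an unadjusted p under 0.05, and 498 of all genes did. DESeq2 called 2 genes, DESeq2 with the block 25 and edgeR with the block 1, and no member was among them. The interaction of the members had a median log2 value of -0.03. For KIF20A the effects of -0.45 ± 0.060 and -0.50 ± 0.060 differed by less than their errors. Set side by side over libraries that do not overlap, EphB2-Fc gave lower values in both backgrounds for 40 of the 43 genes. The 2 effects had a Pearson r of 0.43 over the 43 genes, and of 0.75 without CCNA2. The siRNA effect without and with EphB2-Fc was positive in both for 32 genes, with r = 0.67 (0.86 without CCNA2). These correlations are across genes that share the same libraries and are given as a description.

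**Figure D4:**
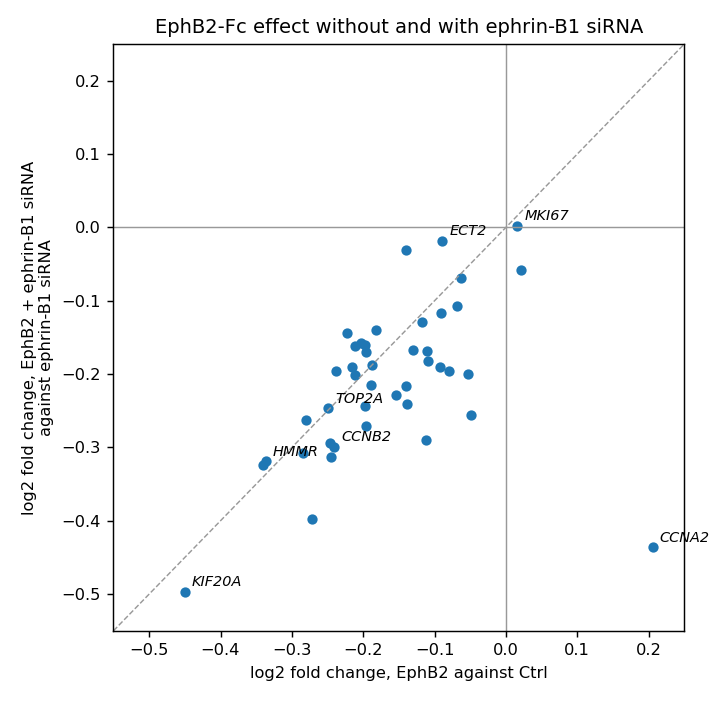
Log2 fold change of EphB2-Fc in cells with control siRNA (x axis) against that in cells with ephrin-B1 siRNA (y axis), 1 point per gene, with a dashed line where both are equal. Of the 43 genes, 40 lie below 0 on both axes, with KIF20A farthest down, MKI67 near 0 and CCNA2 alone at the right.

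CCNA2, cyclin A2 of S phase and early mitosis (chr4:121816444-121823883), stood apart from the other members by its spread, and it was chosen for description, like ECT2, BUB1, CDC25B and UBE2C, after the values were seen. It was at 77.2, 78.3 and 51.3 CPM in Ctrl, at 110, 45.3 and 83.1 in EphB2, at 136, 82.5 and 107 in ephrin-B1 siRNA and at 90.3, 49.5 and 101 in EphB2 + ephrin-B1 siRNA. Its log2 range within a group averaged 0.91, against a median range over the members of 0.13 to 0.19. None of its differences passed either fit, and its log2 fold change of 0.65 ± 0.33 in ephrin-B1 siRNA (adjusted p = 0.478, 0.086 with the block) is the highest of the list in that comparison. The next widest members were ECT2 and CDC25B, at 0.44 and 0.38, and in these 2 the replicates kept 1 order in every group, with replicate 2 highest for ECT2 and lowest for CDC25B.

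On the TPM scale, on which counts are divided by transcript length, the members spanned a wide range in Ctrl. UBE2C, the ubiquitin conjugating enzyme of the anaphase-promoting complex, was highest at 515 ± 64.9 TPM, followed by PTTG1, securin, at 288 ± 44.1 and TPX2 at 276 ± 28.1. The lowest were KIF14, a cytokinesis kinesin, at 18.2 ± 1.67 and CENPE, a kinetochore motor, at 18.5 ± 2.43. The median was 84.9 TPM. In this order 40 of the 42 neighbouring pairs overlapped between libraries. The 2 gaps were UBE2C above PTTG1, and TTK above CENPE. UBE2C as a gene did not pass against Ctrl (-0.15 ± 0.058, adjusted p = 0.569), and with the block it was just past the threshold (adjusted p = 0.0497).

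Medians were nearer 0 in the lists of other mitotic and of G1/S genes than in the 43 genes, a difference that was not tested. Of 105 other mitotic genes, such as condensin, further kinetochore and checkpoint genes, none passed for EphB2 against Ctrl, and their median log2 fold change was -0.06. In the blocked fit 9 fell and 3 rose, where 3.2% of all genes and 8.3% of the abundant ones were called lower. Over both backgrounds 4 of them fell, against 0.602% of all genes. These 4 were SKA2 (-0.27 ± 0.038), PSRC1 (-0.30 ± 0.049), NEK2 (-0.31 ± 0.049) and CKAP2 (-0.28 ± 0.043), all proteins of the spindle, kinetochore or centrosome. In the blocked fit over both backgrounds 31 of the 105 fell and 5 rose, where 8.37% of all genes and 20.1% of the abundant ones were called lower. In ephrin-B1 siRNA against Ctrl, 4 of the 105 rose and 2 fell, with a median of 0.07. There 0.657% of all genes were called higher, and 249 of 21601 lower. In the blocked fit 31 rose and 5 fell, where 6.51% of all genes and 16.6% of the abundant ones were called higher. That fit called 1525 of all genes lower. CIT, the citron kinase of the cleavage furrow, rose by 0.55 ± 0.094, while KNL1, SPAG5 and CKAP2 rose by 0.26 to 0.28. ZWILCH, a kinetochore checkpoint protein, fell by 0.53 ± 0.078, and FAM83D fell by 0.40 ± 0.063. The 30 G1/S and replication genes had medians of 0.02 for EphB2 and -0.05 for ephrin-B1 siRNA against Ctrl. None of them passed for EphB2. RRM2 and TK1, enzymes of nucleotide supply, fell in ephrin-B1 siRNA (-0.33 ± 0.06 and -0.29 ± 0.064), where 249 of the 21601 genes were called lower. The summed level of the 30 genes was 5957 to 6272 CPM in Ctrl, 5727 to 6501 in EphB2 and 5456 to 5948 in ephrin-B1 siRNA. The EphB2 range overlaps that of Ctrl, and the ephrin-B1 siRNA range lies wholly below it. In the blocked fit of ephrin-B1 siRNA against Ctrl 9 of the 30 fell and 1 rose, where 1525 of the 21601 genes were called lower and 1406 higher.

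**Figure D5:**
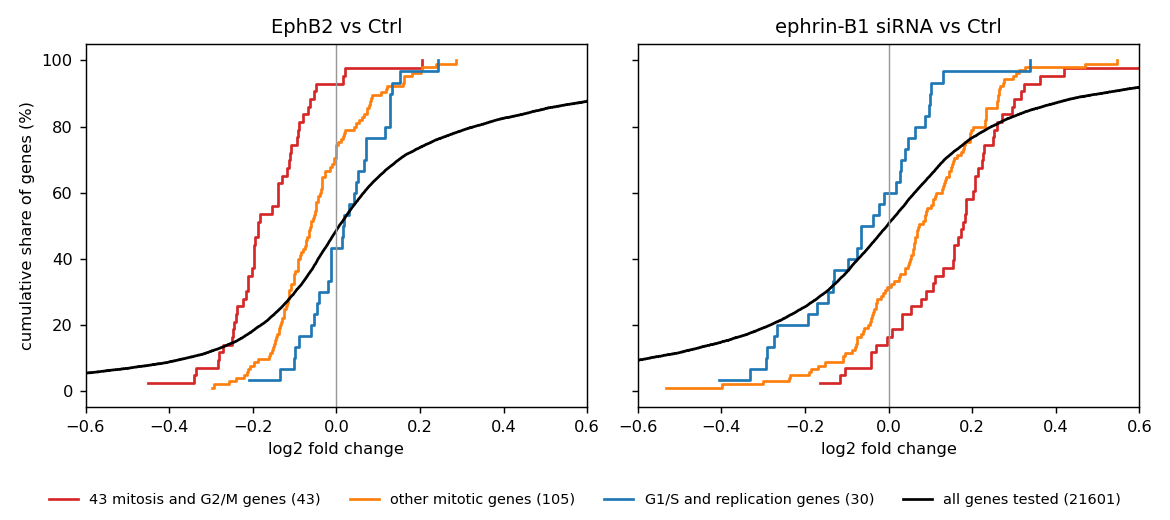
Cumulative share of genes (y axis, %) by log2 fold change (x axis) for the 43 mitosis and G2/M genes, 105 other mitotic genes, 30 G1/S and replication genes and all 21601 genes tested. The left panel shows EphB2 against Ctrl, where the 43 genes lie to the left (median -0.19), and the right panel ephrin-B1 siRNA against Ctrl, where they lie to the right (median 0.18).

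The 12 CDK inhibitors and pocket proteins, which hold back the cell cycle, had a median log2 fold change of -0.27 for EphB2 against Ctrl, with 10 of 12 negative. None of them passed there. In the blocked fit 5 fell and 1 rose, where 3.2% of all genes and 8.3% of the abundant ones were called lower. Over both backgrounds EphB2-Fc lowered 3 of them, against 0.602% of all genes. CDKN1A, p21, fell by 0.44 ± 0.088 (adjusted p = 0.0412), CDKN1B, p27, fell by 0.22 ± 0.041 (adjusted p = 0.0329), and CDKN2C, p18, fell by 0.32 ± 0.05 (adjusted p = 0.0171). In ephrin-B1 siRNA against Ctrl CDKN1A rose by 0.65 ± 0.12 (adjusted p = 0.0259), while CDKN1B fell by 0.30 ± 0.058 (adjusted p = 0.0263). CDKN1A thus had the sign of the mitotic genes in both contrasts, which share the Ctrl libraries, and CDKN1B in the first alone. Over the 12 genes the ephrin-B1 siRNA values against Ctrl were 6 positive and 6 negative, with a median of 0.0060. In that comparison 0.657% of all genes were called higher, and 249 of 21601 lower.

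The 8 fibroblast and pericyte markers differed widely in level. FN1 was at 6534 to 17725 CPM, COL1A2 at 20.1 to 87.8 and ACTA2 at 5.50 to 19.6, and COL3A1 reached only 0.158 CPM. Of the 8, 1 passed for EphB2-Fc, where 0.602% of all genes and 1.62% of the abundant ones were called lower over both backgrounds. COL1A1 fell by 0.30 ± 0.055 over both backgrounds (adjusted p = 0.0291), and its level was 2474 to 3598 CPM. The summed level of the 8 markers was 12901 to 23278 CPM in Ctrl and 12672 to 23065 in EphB2. It was 11561 to 17132 CPM in ephrin-B1 siRNA. The blocked fit called 5 of the 8 lower over both backgrounds and 1 higher, where 8.37% of all genes and 20.1% of the abundant ones were called lower. Whether these levels have a part in the mitotic differences was not tested.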

How the data were processed

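RNA of HMC3 cells was rRNA-depleted and sequenced as paired-end reads. The authors quantified transcripts with kallisto (version not given in the sources used here) on Ensembl release 109 (GRCh38), and deposited, for each transcript, TPM and estimated counts. The latter were summed per gene through GENCODE 44 by transcript ID (88.5% of transcripts, 95.25 to 95.98% of counts) and rounded. Testing used edgeR 4.0.16 in R 4.3.3 on genes whose 12 libraries together held 10 counts or more (TMM, quasi-likelihood F test, all 4 groups in 1 fit, Benjamini-Hochberg over 21601 genes, threshold 0.05), without a block. The replicate numbers were taken to pair the libraries, since the submitted names share an experiment number. Same-numbered libraries correlated at 0.71 to 0.76, 0.72 to 0.75 and 0.09 to 0.20 over 12999 genes. A call differing with that block is given beside the result. CPM use TMM-scaled totals. Alternatives were DESeq2 1.42.0, limma 3.58.1 on log2(TPM + 1), other filters, a length offset and left-out libraries. Scripts were tested on simulated data. Levels are given for members that passed, the 12 with the smallest p for EphB2 against Ctrl and 6 fixed genes. The members and lists were chosen with earlier results of these data known. Depth was 13230689 to 25785591 counts per library. The result of 1 gene of the CDK inhibitor and pocket protein list is not reported here.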

Additional observations from a re-analysis of the deposited data

How the results depend on the processing

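With the replicate number as a block in edgeR, 21, 28, 35, 27 and 17 members passed for EphB2 against Ctrl, EphB2 + ephrin-B1 siRNA against ephrin-B1 siRNA, the mean EphB2 effect, ephrin-B1 siRNA against Ctrl and EphB2 + ephrin-B1 siRNA against EphB2, where 1, 1, 7, 6 and 2 did without it. In the same order DESeq2 called 8, 12, 23, 16 and 10, and DESeq2 with the block 25, 28, 35, 26 and 20. Over all 21601 genes DESeq2 called 122, 171 and 467 lower in the first 3 and 470 and 308 higher in the last 2. With the block DESeq2 called 698, 722, 1458, 1149 and 840. In edgeR the same counts were 692, 887, 1808, 1406 and 979 with the block and 3, 7, 130, 142 and 45 without. The block without replicate 3 gave 4, 3 and 22 for the first 3, against 103, 73 and 649 of 21598 genes called lower. With only the groups compared, none passed in the 4 pairwise comparisons. Over all genes those fits called 0 and 0 lower for EphB2-Fc, and 17 and 0 higher for the siRNA. A length offset left 0, 0, 1, 0 and 0, and limma 0, 0, 2, 0 and 0. Over all genes the length offset called 0, 2 and 37 lower in the first 3 and 47 and 6 higher in the last 2. For limma the same counts were 0, 0, 16, 0 and 2. No filter beyond 1 count gave 4, 2 and 1 for the last 3, and filterByExpr gave 12 for the mean EphB2 effect. The first of these filters called 85 of 29336 genes lower, then 99 and 42 higher, and the second 196 of 16188 lower. Leaving out replicates gave 0 to 1, 0 to 1, 0 to 5, 0 to 6 and 0 to 1. Interaction calls among members were 0 under each alternative. The cause of these moves was not tested.

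The members' median log2 fold change kept its sign under every alternative in the 5 comparisons other than the interaction. That of the interaction was 0.00729 with the block and no replicate 3, and it ran from -0.0643 to 0.0119 over the left-out replicates. For EphB2 against Ctrl the left-out replicates gave FOXM1 -0.117 to 0.0154, ESPL1 -0.158 to 0.00758 and MKI67 -0.0581 to 0.0667. MKI67 was -0.0588 with the block and no replicate 3, and -0.0465 in limma. On log2(TPM + 1) the median of all genes was itself shifted, to -0.030, -0.199, -0.111, 0.12 and -0.033, beside members' medians of -0.232, -0.492, -0.362, 0.352 and 0.0786.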
